A study of Mus musculus with 8 samples.

Results

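The genes described here carry bile acids through the intestinal epithelium or sense them. They were chosen by name from the tables of counts and of FPKM (counts scaled to gene length and library total) and numbered 10 of 17353 genes. The list held the uptake transporter Slc10a2, the intracellular carrier Fabp6, the efflux transporters Slc51a, Slc51b and Abcc3, the receptors Nr1h4 and Gpbar1, the receptor targets Nr0b2 and Fgf15, and the sterol hydroxylase Cyp27a1. All 10 were in both tables, and 7 had enough counts to be tested. RNA of the colonic mucosa was sequenced in 8 male wild-type C57BL/6J mice on day 7, with 2 animals in each of 4 groups. Kuiyangling mice, given a herbal formula at 10 g/kg by enema, and mesalazine mice, given an anti-inflammatory drug of ulcerative colitis at 50 mg/kg by enema, belonged to the colitis arms made with 3% dextran sulfate sodium (DSS) in the drinking water. DSS model mice drank 3% DSS and received saline enemas, and control mice received saline enemas without DSS. Each enema had a volume of 0.2 ml.

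Bile acids are made from cholesterol in the liver and are largely taken back up in the terminal ileum, where SLC10A2 brings them into the enterocyte, FABP6 binds them and the SLC51A and SLC51B subunits of the organic solute transporter (OST) release them to the portal blood. The colon receives the remainder, which bacteria convert to secondary bile acids. Inside the cell bile acids bind FXR, the nuclear receptor encoded by Nr1h4, whose known intestinal targets include Slc51a, Slc51b, Fabp6, Nr0b2 and Fgf15. At the cell surface they bind TGR5, encoded by Gpbar1.

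Library totals ran from 15560946 to 17843715 counts, and 15217 to 15689 genes were detected per library. All 8 colonocyte markers checked were present in every library, with summed levels of 15964 to 20570 CPM (counts scaled to library size with TMM factors) in Kuiyangling, 18596 to 18644 in mesalazine, 15522 to 17083 in the DSS model and 14304 to 15479 in controls. Car1 was the largest part of this sum, with group means of 10842, 10928, 8464 and 5425 CPM in that order. Single markers went either way. In the DSS model against control, 3 of the 8 log2 changes were above 0 and 5 below. Mesalazine 1 and control 2, named by group and animal, stood apart, with mean Spearman correlations of 0.940 and 0.945 with the other libraries, against 0.963 to 0.974 for the rest. The level of Hoxb13, a homeobox gene of the posterior gut, differed widely between libraries. It was 5.88 and 23.1 CPM in Kuiyangling, 0.212 and 0.642 CPM in mesalazine, 12.9 and 2.98 CPM in the DSS model and 19.9 and 175 CPM in controls. In bulk tissue, fewer cells of a type and less RNA per cell cannot be told apart.

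Per length, the OST subunits were the most abundant of the 10 transcripts. Averaged over the 8 libraries, Slc51b stood at 246 FPKM and Slc51a at 137 FPKM. Nr1h4 followed at 98.3 FPKM, Abcc3 at 69.2 FPKM, Slc10a2 at 30.9 FPKM, Fabp6 at 23.1 FPKM and Cyp27a1 at 10.5 FPKM. Neighbours in this order overlapped over the libraries: Slc51a ran from 27.2 to 269 FPKM and Nr1h4 from 48.0 to 132 FPKM. Gpbar1, Fgf15 and Nr0b2 averaged 0.209, 0.127 and 0.0112 FPKM. Among all genes of a library, Slc51b ranked between 255 and 551 by FPKM, whereas Fabp6 moved between rank 1295 and rank 8525. The genes also differed in how far they spread. Between the lowest and the highest library, Abcc3 varied 1.42-fold in CPM, Nr1h4 3.29-fold, Slc51b 4.05-fold, Cyp27a1 5.68-fold, Slc51a 12.0-fold, Fabp6 18.2-fold and Slc10a2 19.6-fold.

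**Figure D1:**
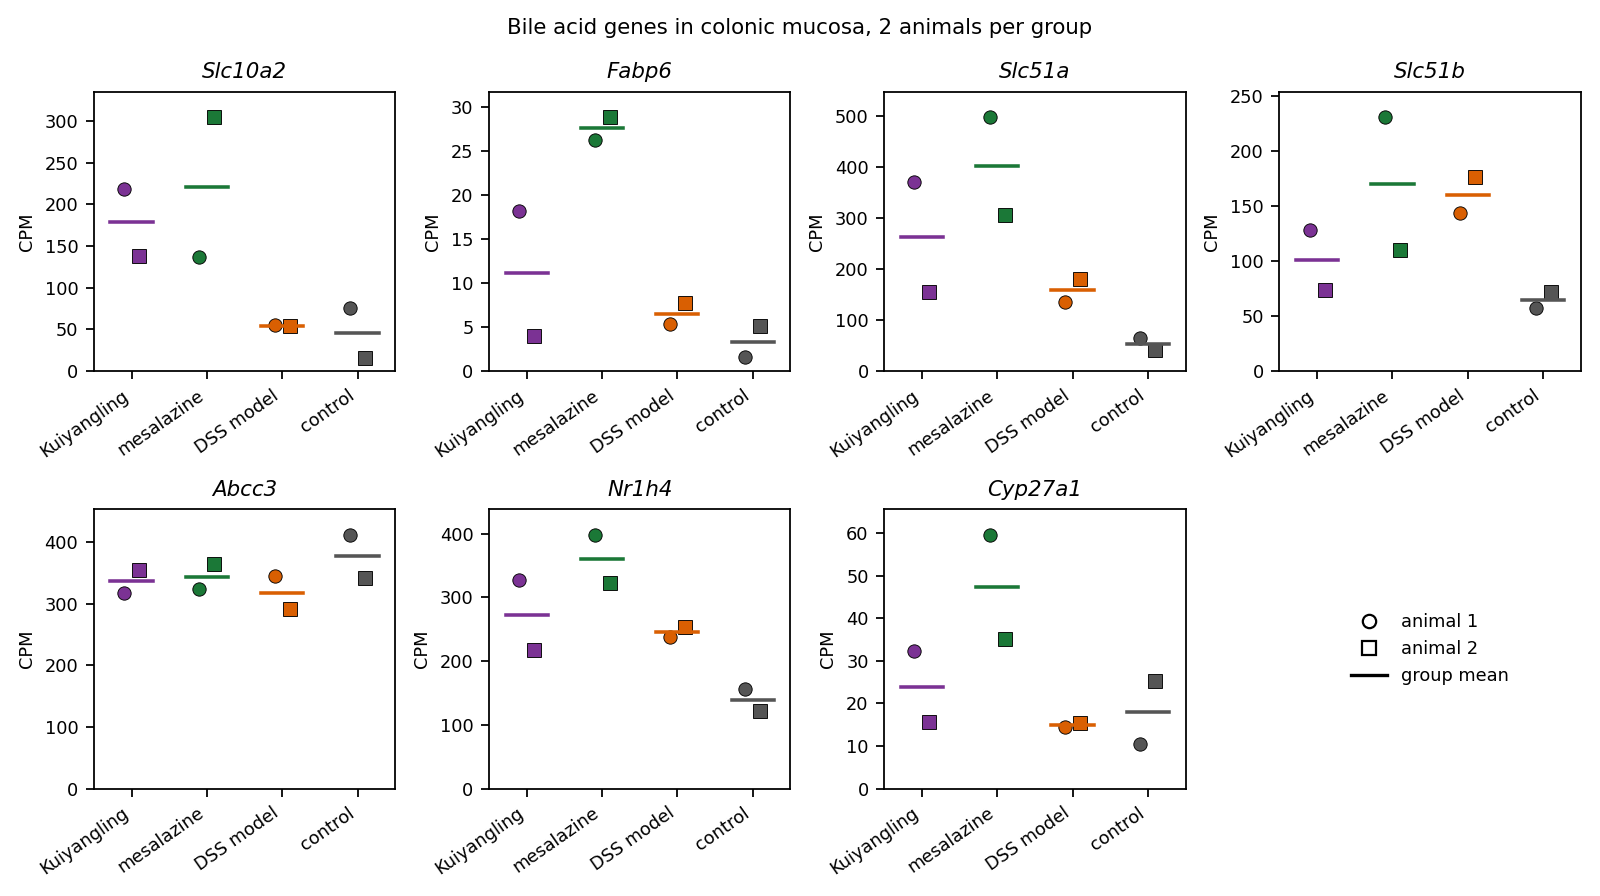
Expression of the 7 tested genes in CPM (vertical axes, linear from 0) in the Kuiyangling, mesalazine, DSS model and control groups; circles and squares are animals 1 and 2, and bars are group means. For Slc51a, Slc51b and Nr1h4 all 6 libraries of DSS-exposed mice lie above both controls, and for Slc10a2 and Cyp27a1 all 4 treated libraries lie above both DSS model libraries.

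Promoters of 8 of the 10 genes were found in the RefSeq promoter table (GRCm38.p6, from 250 bases before to 50 bases after the start site). Those shown are of the genes that held a match to the FXR element or to the hexamer at its core. The element searched was the inverted repeat IR1, made of AGGTCA, any base (N) and TGACCT, with up to 2 mismatches in its 12 fixed letters. It reads the same on both strands. The core hexamer AGGTCA, which lies within IR1, was searched on both strands. In the lines that follow, capitals mark the matches. Slc51a lies at chr16:32487830-32488129, Slc51b at chr9:65422724-65423023, Nr1h4 at chr10:89506609-89506908 and Fabp6 at chr11:43601513-43601812, all on the minus strand. The Nr1h4 window lies inside the gene as annotated in GENCODE M21 (chr10:89454234-89533585), so that its start site is not the most upstream one. The Slc51b gene begins there at chr9:65422955, inside its window and upstream of the start site on which that window was built.
Slc51a: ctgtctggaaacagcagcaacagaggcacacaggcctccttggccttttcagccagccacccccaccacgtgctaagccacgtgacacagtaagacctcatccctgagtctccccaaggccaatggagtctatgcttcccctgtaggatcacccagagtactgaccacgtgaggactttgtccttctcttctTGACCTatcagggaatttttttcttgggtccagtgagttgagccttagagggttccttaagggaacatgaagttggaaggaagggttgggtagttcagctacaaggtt
Slc51b: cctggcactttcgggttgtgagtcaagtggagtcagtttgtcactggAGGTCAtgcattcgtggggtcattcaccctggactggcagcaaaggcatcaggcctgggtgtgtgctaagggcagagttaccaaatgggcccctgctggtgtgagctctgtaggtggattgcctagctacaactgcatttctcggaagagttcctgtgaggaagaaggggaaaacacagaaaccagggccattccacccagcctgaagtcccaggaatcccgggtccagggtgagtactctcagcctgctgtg
Nr1h4: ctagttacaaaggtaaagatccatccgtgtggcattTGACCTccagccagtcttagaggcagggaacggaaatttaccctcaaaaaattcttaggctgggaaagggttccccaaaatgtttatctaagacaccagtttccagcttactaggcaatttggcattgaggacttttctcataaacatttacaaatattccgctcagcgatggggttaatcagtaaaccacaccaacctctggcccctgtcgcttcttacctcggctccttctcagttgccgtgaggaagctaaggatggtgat
Fabp6: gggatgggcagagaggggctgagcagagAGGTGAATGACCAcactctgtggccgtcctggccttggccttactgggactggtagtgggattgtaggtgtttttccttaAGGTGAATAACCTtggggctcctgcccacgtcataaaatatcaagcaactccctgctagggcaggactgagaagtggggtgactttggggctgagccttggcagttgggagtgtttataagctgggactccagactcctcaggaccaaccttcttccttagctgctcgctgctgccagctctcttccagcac
The core hexamer was found in the windows of Slc51a, Slc51b and Nr1h4, that is in 3 of 8, against 16.3% of 32851 promoters in the table. IR1 with up to 2 mismatches was found in the window of Fabp6 alone, at 2 places, against 1.14% of all promoters. Both places, AGGTGAATGACCA and AGGTGAATAACCT, differ from IR1 at 2 letters. The exact IR1 was in none of the 8 windows and in 3 of the 32851 promoters. These are matches of letters in short windows and not measured binding sites. The hexamer alone is only a part of IR1, and its presence does not tell which receptor, if any, binds there.

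The efflux transporters differed from each other. Slc51a, the larger OST subunit, stood at 369.6 and 155 CPM in Kuiyangling, at 498 and 305 CPM in mesalazine, at 136 and 179.6 CPM in the DSS model and at 64.4 and 41.6 CPM in controls. Every DSS-exposed animal lay above both controls, and both mesalazine animals lay above both DSS model animals, while Kuiyangling 2 lay within the range of the DSS model. Slc51a rose in mesalazine against control mice, with means of 401 ± 136 against 53.0 ± 16.1 CPM (SD, n = 2 each), 7.57-fold (95% interval 3.69 to 15.5) or 2.92 on the log2 scale (SE 0.47; edgeR adjusted p = 0.0312). It was the 1 gene of the 7 tested that passed in this comparison, against 0.673% of all 13381 genes tested. The estimate was 2.52 (adjusted p = 0.138) without mesalazine 1, 2.64 (0.283) without control 2 and 2.22 (0.148) without both. Over all alternatives it ran from 2.22 to 3.25, with adjusted p from 6.39e-09 to 0.283.

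In the other comparisons Slc51a did not pass. Kuiyangling against control gave a log2 change of 2.31 (SE 0.45; adjusted p = 0.0739), with a range of adjusted p from 1.72e-05 to 0.524 over the alternatives. The DSS model against control gave 1.57 (SE 0.44; adjusted p = 0.174). Against the DSS model, mesalazine stood at 1.35 (SE 0.44; adjusted p = 0.646) and Kuiyangling at 0.73 (SE 0.44; adjusted p = 0.996), or at -0.05 without Kuiyangling 1. The order of the group means was thus mesalazine, Kuiyangling, DSS model and control, and Kuiyangling overlapped both of its neighbours in that order.

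Slc51b, the smaller OST subunit, without which the transporter does not reach the cell surface, stood at 128 and 73.4 CPM in Kuiyangling, at 231 and 109.8 CPM in mesalazine, at 144 and 176 CPM in the DSS model and at 56.999 and 72.1 CPM in controls. Its levels were also above both controls in all 6 DSS-exposed animals, but the order of the groups was another one: both Kuiyangling animals lay below both DSS model animals, and mesalazine overlapped the DSS model. The log2 change was 1.31 in the DSS model (SE 0.40; adjusted p = 0.202) and 1.40 in mesalazine (SE 0.40; adjusted p = 0.111), each against control. Kuiyangling stood at -0.67 against the DSS model (SE 0.39; adjusted p = 0.996), with a 95% interval from -1.55 to 0.21. Slc51b has a short transcript of 488 bases, and expression relative to the other libraries went with gene length in several libraries (rho = -0.534 in mesalazine 1, -0.433 in DSS model 2 and 0.444 in control 1, across genes, which are not independent replicates). With the length trend removed, the log2 changes of Slc51b against control were 0.44 in the DSS model and 0.16 in mesalazine, whereas those of Slc51a were 1.24 and 2.50. For Kuiyangling, Slc51b then went from -0.67 to -0.32 against the DSS model and from 0.64 to 0.12 against control.

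Because both subunits form 1 transporter, their ratio was also taken per length. Slc51b FPKM divided by Slc51a FPKM was 1.09 and 1.50 in Kuiyangling, 1.47 and 1.14 in mesalazine, 3.34 and 3.11 in the DSS model and 2.80 and 5.48 in controls. All 4 treated animals lay below all 4 animals that received saline enemas. The ratio was looked at after the values of both genes were seen and is given without a test or a background share. The transcripts differ in length, at 488 bases for Slc51b and 1544 for Slc51a. The length trends of the libraries were not removed from the ratio. In GENCODE M21 Slc51a shares 567 bases with Pcyt1a and Slc51b shares 2140 bases with Rasl12, each on the other strand, and the strand setting of the counting is not given in the sources used here. Pcyt1a ran from 56.5 to 96.2 CPM over the libraries and was at a log2 change of -0.22 in mesalazine against control. Rasl12 ran from 2.53 to 8.56 CPM and was at 1.25 in the DSS model against control (adjusted p = 0.338).

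**Figure D2:**
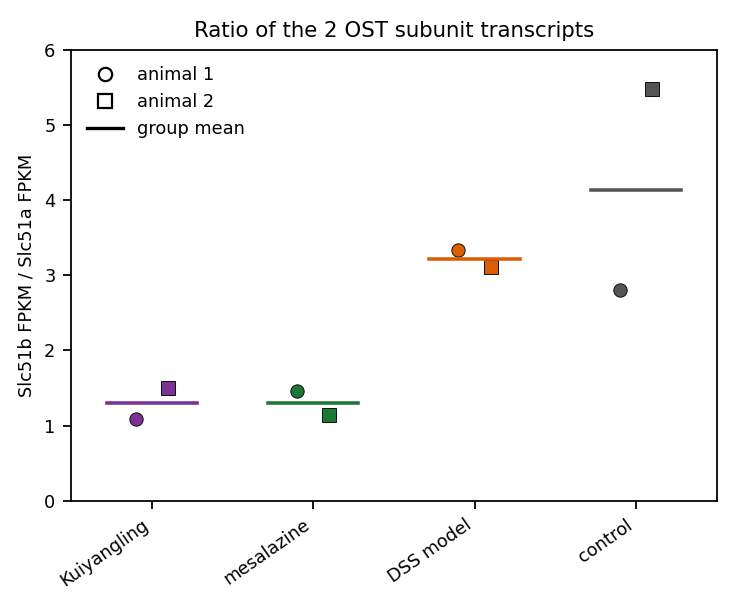
Slc51b FPKM divided by Slc51a FPKM (vertical axis, linear from 0) in each animal of the Kuiyangling, mesalazine, DSS model and control groups; circles and squares are animals 1 and 2, and bars are group means. The 4 treated animals lie between 1.09 and 1.50 and the 4 animals given saline enemas between 2.80 and 5.48. The length trends of the libraries are not removed.

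Abcc3, the basolateral conjugate pump MRP3, had the flattest profile of the tested genes, with 318 and 356 CPM in Kuiyangling, 323 and 365 CPM in mesalazine, 345 and 291 CPM in the DSS model and 412 and 342 CPM in controls. All groups overlapped. Its log2 changes lay between -0.25 and 0.11 over the 6 comparisons, and the 95% interval of the DSS model against control ran from -0.85 to 0.35.

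Slc10a2, the apical sodium-dependent bile acid transporter, stood at 218 and 139 CPM in Kuiyangling and at 137 and 305 CPM in mesalazine, against 54.9 and 53.7 CPM in the DSS model and 76.2 and 15.6 CPM in controls. All 4 treated animals were above all 4 others. Of the genes tested, 1.91% had all 4 treated libraries above all 4 others, and 1 of the 7, Slc10a2, did so here. The share with all 4 treated libraries above both DSS model libraries was 7.53%, and 2 of the 7, Slc10a2 and Cyp27a1, did so. The DSS model lay between both controls. Slc10a2 passed in none of the comparisons. The log2 changes against the DSS model were 1.72 with Kuiyangling (SE 0.63; adjusted p = 0.996) and 2.03 with mesalazine (SE 0.64; adjusted p = 0.642). Without both libraries that stood apart, a setting chosen after seeing the data, the estimates were 1.72 and 2.49. Neither library left out belongs to the Kuiyangling comparison, and the 2.49 rests on mesalazine 2 alone. Kuiyangling passed with edgeR on only the 4 libraries compared (adjusted p = 0.0313). Mesalazine passed with DESeq2 (adjusted p = 0.0386) and with edgeR without a filter on low counts (0.0343). The other alternatives with both animals in every group did not pass. Against control the log2 changes were 1.96 with Kuiyangling (SE 0.64; adjusted p = 0.286) and 2.27 with mesalazine (SE 0.64; adjusted p = 0.110). Without control 2 the estimates against control were 1.23 and 1.54. The DSS model was at 0.24 against control and at -0.49 without control 2.

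Fabp6, the ileal bile acid binding protein, was highest in both mesalazine animals, at 26.3 and 28.9 CPM, against 5.34 and 7.69 CPM in the DSS model. The Kuiyangling animals disagreed, at 18.3 and 3.94 CPM, and controls stood at 1.58 and 5.11 CPM. Mesalazine gave a log2 change of 2.08 against the DSS model (SE 0.67; adjusted p = 0.646) and of 3.05 against control (SE 0.71; adjusted p = 0.0851). The gene did not pass in either, although 6 of 16 alternatives called it against control. The estimate against control was 4.12 without control 2 and 2.41 without control 1. The transcript has 510 bases, and with the length trend removed the estimate was 2.09 (adjusted p = 0.196; 9.83e-05 to 0.270 over the alternatives). With Kuiyangling the estimate against the DSS model was 0.76, and it was -0.75 without Kuiyangling 1.

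Nr1h4, the gene of FXR, stood at 327 and 217 CPM in Kuiyangling, at 398 and 322 CPM in mesalazine, at 238 and 254 CPM in the DSS model and at 157 and 121 CPM in controls. Each DSS-exposed animal was above both controls, and mesalazine was above the DSS model. Kuiyangling overlapped the DSS model. Against control the log2 changes were 0.97 with Kuiyangling (SE 0.30; adjusted p = 0.264), 1.38 with mesalazine (SE 0.30; adjusted p = 0.0781) and 0.82 in the DSS model (SE 0.30; adjusted p = 0.273). Of the genes tested, 14.3% had all 6 DSS-exposed libraries above both controls, and 3 of the 7 did so here: Slc51a, Slc51b and Nr1h4.

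Gpbar1, the gene of the membrane receptor TGR5, was near the limit of detection, where 3 counts correspond to 0.149 to 0.212 CPM in a library. It had 2 and 3 counts in Kuiyangling, 3 and 3 in mesalazine, 4 and 3 in the DSS model and 8 and 2 in controls, and a difference was not detectable at this depth. The counting interval of the highest of these, 8 counts, was 3.45 to 15.8 (exact Poisson, 95%), which overlaps those of all others.

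Of the known FXR targets listed, Nr0b2 and Fgf15 were all but undetected. Nr0b2, which encodes the repressor SHP, had 1 count in mesalazine 1 and 1 in control 1, and 0 in the other 6 libraries. Fgf15, the hormone that the ileum sends to the liver to restrain bile acid synthesis, had 27 counts in mesalazine 2 (exact Poisson 95% interval 17.8 to 39.3), 3 counts in Kuiyangling 1 and 0 in the remaining 6 libraries. Taking 3 counts as the limit that a count of 0 allows, one-sided, that limit was 0.212 CPM in the shallowest library by scaled size. Fgf15 shares 931 and 1641 bases with 2 annotated antisense genes in GENCODE M21, and without a known strand setting reads of these and of Fgf15 cannot be told apart. Intervals and limits of this kind cover counting error only. No group difference in Fgf15 can be drawn from 1 animal.

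Cyp27a1, the mitochondrial sterol 27-hydroxylase of the alternative bile acid pathway, stood at 32.2 and 15.7 CPM in Kuiyangling, at 59.6 and 35.2 CPM in mesalazine, at 14.4 and 15.4 CPM in the DSS model and at 10.5 and 25.4 CPM in controls. Both mesalazine animals were above every animal of the other groups, and the remaining groups overlapped or nearly so, with Kuiyangling 2 just above the DSS model. The log2 change with mesalazine was 1.67 against the DSS model (SE 0.48; adjusted p = 0.544) and 1.40 against control (SE 0.47; adjusted p = 0.155). Against control it ran from 0.88 without control 1 to 2.17 without control 2, and it was 0.97 without mesalazine 1. The gene is also expressed by macrophages. All 8 macrophage markers were detected, and their summed level was 158 to 158 CPM in Kuiyangling, 158 to 183 CPM in mesalazine, 182 to 182 CPM in the DSS model and 151 to 177 CPM in controls. Most of the sum came from Cd14 and Mertk. Cd14 averaged 81.7 CPM in the DSS model and 51.7 in mesalazine, and Mertk 46.5 and 63.6. In mesalazine against the DSS model, 3 of the 8 log2 changes were above 0 and 5 below. The part of macrophages in the result for Cyp27a1 was not tested.

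**Figure D3:**
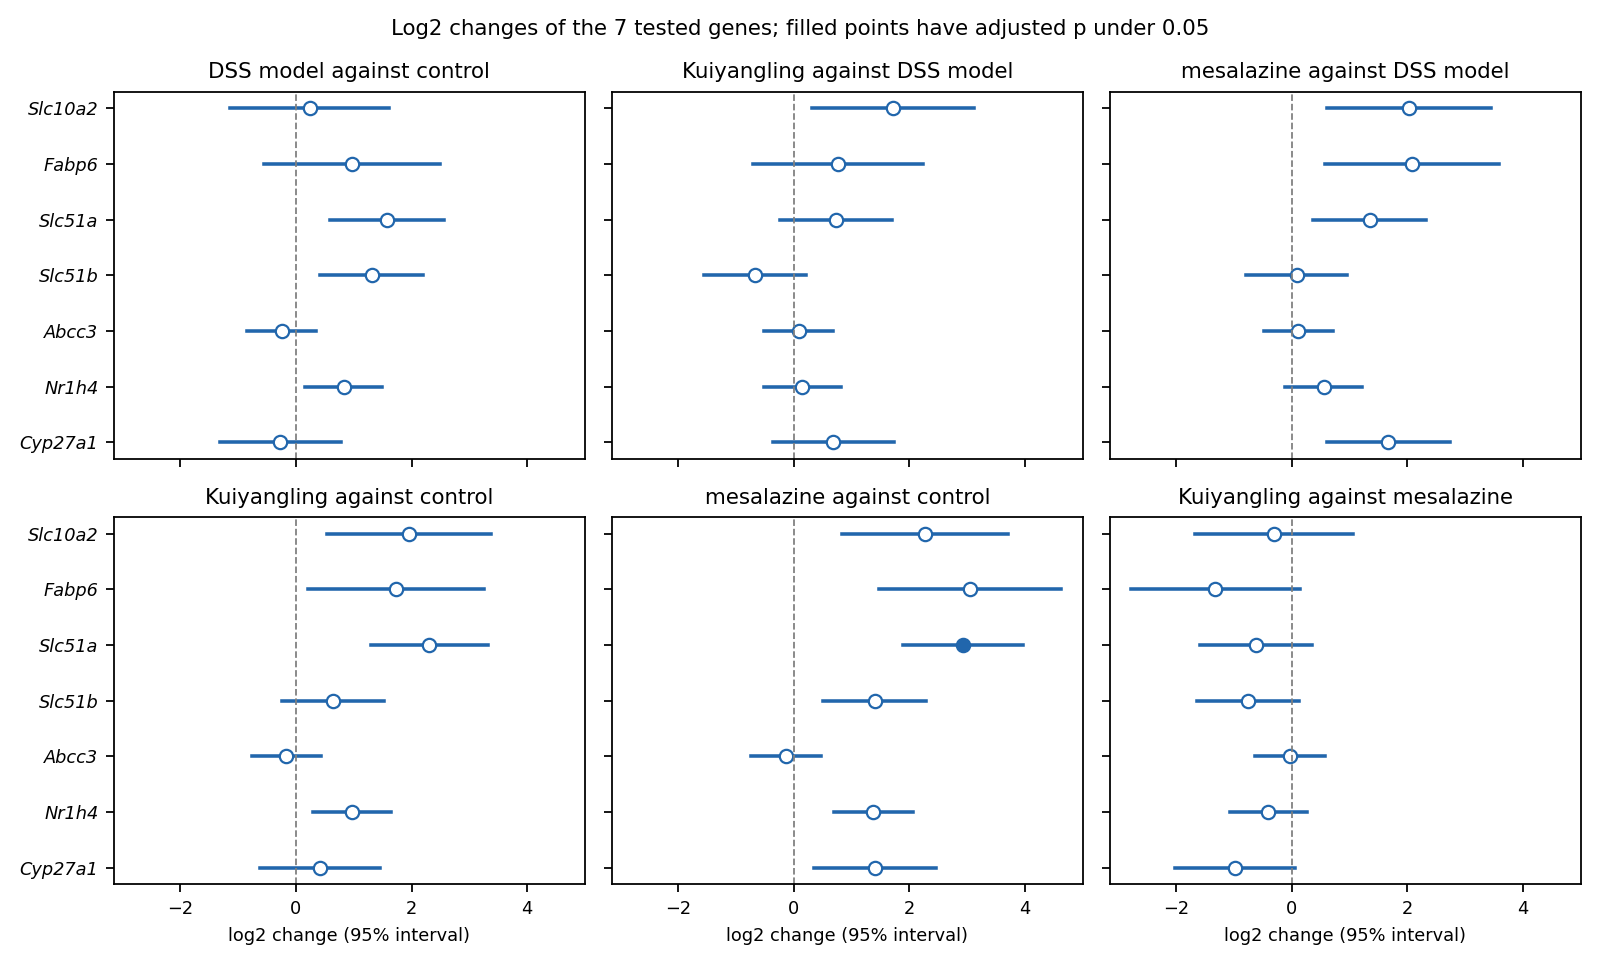
Log2 changes (horizontal axes) of the 7 tested genes with 95% intervals in the 6 comparisons, positive where the group named first is higher; filled points have an edgeR adjusted p under 0.05. Slc51a in mesalazine against control, at 2.92, is the only filled point.

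Taken by comparison, the 7 tested genes were counted against all genes. The list was chosen with earlier results of these data known, so these counts describe the genes and do not test the list. Between the DSS model and control 0 passed, against 0.247% of all genes; with edgeR 3 of 7 had an unadjusted p under 0.05 and were higher, against 7.63% of all genes, and DESeq2 called 2, Slc51a and Slc51b, against 3.11% of all genes. Both DSS model libraries lay above both controls for 4 of 7, against 27.2% of all genes, and the median log2 change of the 7 was 0.82, against -0.04 over all genes. Of the 4, Fabp6 did so narrowly, at 5.34 CPM in DSS model 1 against 5.11 CPM in control 2. With the length trend removed, the log2 change of Fabp6 went from 0.97 to 0.10 and that of Slc51b from 1.31 to 0.44. Those of Slc51a and Nr1h4 went from 1.57 to 1.24 and from 0.82 to 0.72. Between mesalazine and the DSS model 0 passed, against 0% of all genes; 4 of 7 had an unadjusted p under 0.05, all higher, against 2.73%, DESeq2 called 1, Slc10a2, against 0.76%, and the median was 1.35, against 0.04. In 5 of 7 the mesalazine libraries lay above the DSS model, against 14% of all genes. Between Kuiyangling and the DSS model 0 passed, against 0% of all genes; 1 of 7, Slc10a2, had an unadjusted p under 0.05 and was higher, against 1.98%, DESeq2 called 0, against 0.0749%, and the median was 0.69, against 0.00. Here 2 of 7, Slc10a2 and Cyp27a1, had both Kuiyangling libraries above the DSS model, against 21.9% of all genes, and 1, Slc51b, had both below it, against 21.1%.

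The remaining comparisons followed the same layout. Between mesalazine and control 1 passed, against 0.673% of all genes, and the median was 1.40, against -0.01. Here 6 of 7 had an unadjusted p under 0.05, all higher, against 11.7% of all genes, DESeq2 called 6, against 7.19%, and 6 had both mesalazine libraries above both controls, against 23.6%. Between Kuiyangling and control 0 passed, against 0.239% of all genes; 4 of 7 had an unadjusted p under 0.05, all higher, against 5.07%, DESeq2 called 2, Slc10a2 and Slc51a, against 2.56%, and the median was 0.97, against -0.01. Both Kuiyangling libraries lay above both controls for 4 of 7, against 25.9% of all genes. Between Kuiyangling and mesalazine 0 passed, against 0% of all genes, 0 of 7 had an unadjusted p under 0.05, against 0.56% of all genes higher and 1.34% lower, DESeq2 called 0, against 0%, and the median was -0.61, against 0.00. Both Kuiyangling libraries lay above mesalazine for 0 of 7, against 10.5%, and below it for 2, Fabp6 and Cyp27a1, against 11.6%. All 7 estimates were below 0 there, and the 95% intervals included 0, for example from -2.77 to 0.14 for Fabp6 and from -1.58 to 0.35 for Slc51a. The comparisons share libraries, so that their counts are not independent of each other.

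The 52 other genes of bile acid handling were listed by role. Of these, 50 were in the tables and 37 were tested. Between mesalazine and control 1 of the 37 passed, in the higher direction, and the median was 0.08. In the other 5 comparisons 0 of 37 passed, with medians of -0.02 for the DSS model against control, 0.09 for Kuiyangling against the DSS model, 0.24 for mesalazine against the DSS model, -0.06 for Kuiyangling against control and -0.05 for Kuiyangling against mesalazine. Counts at an unadjusted p under 0.05 were also set against all genes. Between the DSS model and control 2 of 37 were higher and 3 lower, against 7.63% and 7.22% of all genes. Against the DSS model, 3 were higher with Kuiyangling and 0 lower (1.98% and 1.58% of all genes), and 4 were higher with mesalazine and 0 lower (2.73% and 2.77%). Against control, 5 were higher with Kuiyangling and 0 lower (5.07% and 5.22%), and 7 were higher with mesalazine and 1 lower (11.7% and 8.27%). Between Kuiyangling and mesalazine 1 was higher and 0 were lower (0.56% and 1.34%).

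The gene that passed was Malrd1, known as Diet1 in mice, which promotes FGF15 output in enterocytes. It stood at 38.9 and 30.1 CPM in Kuiyangling and at 33.5 and 48.2 CPM in mesalazine, against 15.2 and 18.0 CPM in the DSS model and 14.1 and 8.81 CPM in controls. All 4 treated animals were above all 4 others, as for Slc10a2 and for 1.91% of all genes. In mesalazine against control Malrd1 rose, with a log2 change of 1.83 (SE 0.33; edgeR adjusted p = 0.0425). The call was lost in 8 of 16 alternatives, among them without control 2 (1.54; adjusted p = 0.316) and without mesalazine 1 (2.07; 0.0848), within a range of 9.12e-05 to 0.316. Against the DSS model it was at 1.30 with mesalazine (adjusted p = 0.523) and at 1.06 with Kuiyangling (adjusted p = 0.996). Of the FGF15 receptor pair, Fgfr4 averaged 5.54 ± 1.12 FPKM in Kuiyangling, 4.90 ± 0.0239 in mesalazine, 7.02 ± 2.32 in the DSS model and 6.82 ± 0.0413 in controls. Its partner Klb had 13 and 42 counts in Kuiyangling, 5 and 5 in mesalazine, 4 and 5 in the DSS model and 19 and 41 in controls, and was at -2.53 in the DSS model against control (adjusted p = 0.205).

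Among the 7 other transporters tested the most abundant was Abcb1a, a xenobiotic efflux pump, with 139 ± 10.3 FPKM in Kuiyangling, 106 ± 96.0 in mesalazine, 65.5 ± 1.22 in the DSS model and 134 ± 15.1 in controls. It had the smallest p of its list between the DSS model and control (-0.87; adjusted p = 0.402) and between Kuiyangling and the DSS model (0.95; adjusted p = 0.996). Abcc2, an apical conjugate pump, had it between mesalazine and the DSS model (1.85; adjusted p = 0.890) and between mesalazine and control (2.21; adjusted p = 0.186). Of the 12 nuclear receptors, partners and regulators tested, Hnf4a, a master regulator of enterocyte genes, was the most abundant, at 186 ± 15.1 FPKM in Kuiyangling, 147 ± 75.3 in mesalazine, 164 ± 18.7 in the DSS model and 238 ± 23.2 in controls. Vdr, the vitamin D receptor, which also binds the secondary bile acid lithocholic acid, was at -0.71 in the DSS model against control (adjusted p = 0.324) and at 0.37 with Kuiyangling against the DSS model (adjusted p = 0.996). Nr1h3, the oxysterol receptor LXR alpha, was at 0.54 with mesalazine against the DSS model (adjusted p = 0.992) and at 0.87 against control (adjusted p = 0.247).

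Of the 10 synthesis enzymes tested, Scp2, a peroxisomal thiolase and sterol carrier, was the most abundant, at 109.5 ± 7.51 FPKM in Kuiyangling, 111 ± 23.9 in mesalazine, 94.9 ± 19.8 in the DSS model and 66.0 ± 20.4 in controls. Its log2 change was 0.94 with mesalazine against control (adjusted p = 0.131). Ch25h, cholesterol 25-hydroxylase, had 12 and 14 counts in the DSS model against 1 and 3 in controls (2.83; adjusted p = 0.205). Acot8, a peroxisomal thioesterase, was at -0.51 with Kuiyangling against the DSS model (adjusted p = 0.996), and Slc27a2, an acyl-CoA synthetase, at 0.85 with mesalazine against the DSS model (adjusted p = 0.926). Of the 5 detoxification genes tested, Ugt2b34, a glucuronosyltransferase, was the most abundant, at 239.7 ± 26.3 FPKM in Kuiyangling, 218 ± 143 in mesalazine, 151 ± 2.51 in the DSS model and 184 ± 74.5 in controls. Cyp3a13, a cytochrome P450, stood at 542 and 685 CPM in mesalazine against 187 and 266 CPM in the DSS model (1.44; adjusted p = 0.503) and 271 and 402 CPM in controls (0.87; adjusted p = 0.191), and was at -0.57 in the DSS model against control (adjusted p = 0.415). Ugt1a1, which conjugates bilirubin, was at 1.09 with Kuiyangling against the DSS model (adjusted p = 0.996).

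Slc10a2 and Fabp6 are genes of the ileum, and markers of small intestinal enterocytes and of position along the colon were set beside them. All 8 enterocyte markers listed were in the table, none of them at 0 in any library. Their summed level was 733 to 913 CPM in Kuiyangling, 1060 to 1576 CPM in mesalazine, 509 to 839 CPM in the DSS model and 754 to 989 CPM in controls, most of it from Fabp2 and Slc5a1, which the colon also expresses. Between mesalazine and control 1 of the 7 tested passed: the aminopeptidase gene Enpep rose, with a log2 change of 4.26 (SE 0.75; adjusted p = 0.0414). It was at 3.59 (adjusted p = 0.280) without control 2, at 4.49 (0.124) without mesalazine 1 and at 3.81 (0.0825) without both. The call was also lost with limma on FPKM (adjusted p = 0.0624) and with the length trend removed (0.0542), 5 of 16 alternatives in all. At an unadjusted p under 0.05, 5 of 7 were higher in each treatment than in the DSS model, against 2.73% of all genes with mesalazine and 1.98% with Kuiyangling, and 5 of 7 were higher in each treatment than in control, against 11.7% and 5.07%. Between the DSS model and control, and between either treatment and the DSS model, 0 of 7 passed. Apoa1, an apolipoprotein gene, stood at 81.9 and 1.87 CPM in Kuiyangling and at 27.0 and 253 CPM in mesalazine, against 2.20 and 1.59 CPM in the DSS model and 1.44 and 0.123 CPM in controls. Anpep, an aminopeptidase of the brush border, stood at 72.4 and 6.49 CPM in Kuiyangling and at 48.7 and 231 CPM in mesalazine, against 4.15 and 4.57 CPM in the DSS model and 3.57 and 5.55 CPM in controls. Mesalazine 2, mesalazine 1 and Kuiyangling 1 were the 3 highest libraries for both genes, and they were also the 3 highest for Fabp6, while mesalazine 2, the highest for both, held 27 of the 30 Fgf15 counts. Both genes were picked after their values were seen, and other markers of the list had another order. Fabp2, a fatty acid carrier, averaged 465 ± 25.0 CPM in Kuiyangling, 667 ± 33.9 in mesalazine, 481 ± 236 in the DSS model and 683 ± 157 in controls (SD, n = 2 each). Slc5a1, the sodium-glucose transporter, lay between 154 and 232 CPM in all libraries, and Lct, the lactase gene, had 3 counts in Kuiyangling, 4 in mesalazine, 10 in the DSS model and 5 in controls, summed over both animals.

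Of the 4 genes listed for distal position 3 were in the table. Their summed level was 13.2 to 38.1 CPM in Kuiyangling, 0.920 to 5.48 CPM in mesalazine, 10.8 to 29.3 CPM in the DSS model and 36.1 to 225 CPM in controls. Hoxd13 was at 0 in both Kuiyangling libraries, mesalazine 1 and DSS model 2. Hoxb13 fell in mesalazine against control, with a log2 change of -7.76 (SE 1.35; adjusted p = 0.0414), in the same comparison in which Slc51a and Malrd1 rose. Hoxb13 was at -5.48 (adjusted p = 0.193) without control 2, at -7.24 (0.263) without mesalazine 1 and at -4.96 (0.176) without both, and leaving out any other library gave an adjusted p from 0.0108 to 0.0476. With the length trend removed it was at -8.17 (adjusted p = 0.0587), so that the call was lost in 4 of 16 alternatives. Control 2, with the most Hoxb13, had the least Slc10a2 and Slc51a, and the mesalazine libraries, with the least Hoxb13, had the most Fabp6, while the most Slc51a was in mesalazine 1 and Kuiyangling 1. Other libraries did not follow this order. Kuiyangling 2, next to control 2 in Hoxb13 at 23.1 CPM, had 139 CPM of Slc10a2 and 155 CPM of Slc51a. DSS model 2, at 2.98 CPM of Hoxb13, had 53.7 CPM of Slc10a2 and 7.69 CPM of Fabp6. The part of the enterocyte and position markers in the results for Slc10a2, Fabp6, Slc51a and Fgf15 was not tested. Other marker lists were summed as well. The 6 neutrophil markers summed to 5.76 to 8.29 CPM in Kuiyangling, 9.51 to 23.1 in mesalazine, 27.9 to 50.1 in the DSS model and 0.198 to 0.431 in controls, the 5 B cell markers to 94.4 to 98.1, 71.8 to 78.8, 99.0 to 150.0 and 54.6 to 1138, the 6 smooth muscle markers to 53.5 to 56.7, 13.1 to 43.8, 13.8 to 31.7 and 24.0 to 85.1, and the 5 hepatocyte markers to 6.87 to 7.99, 5.02 to 9.98, 3.84 to 7.92 and 9.92 to 26.4, in the same order of groups.

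**Figure D4:**
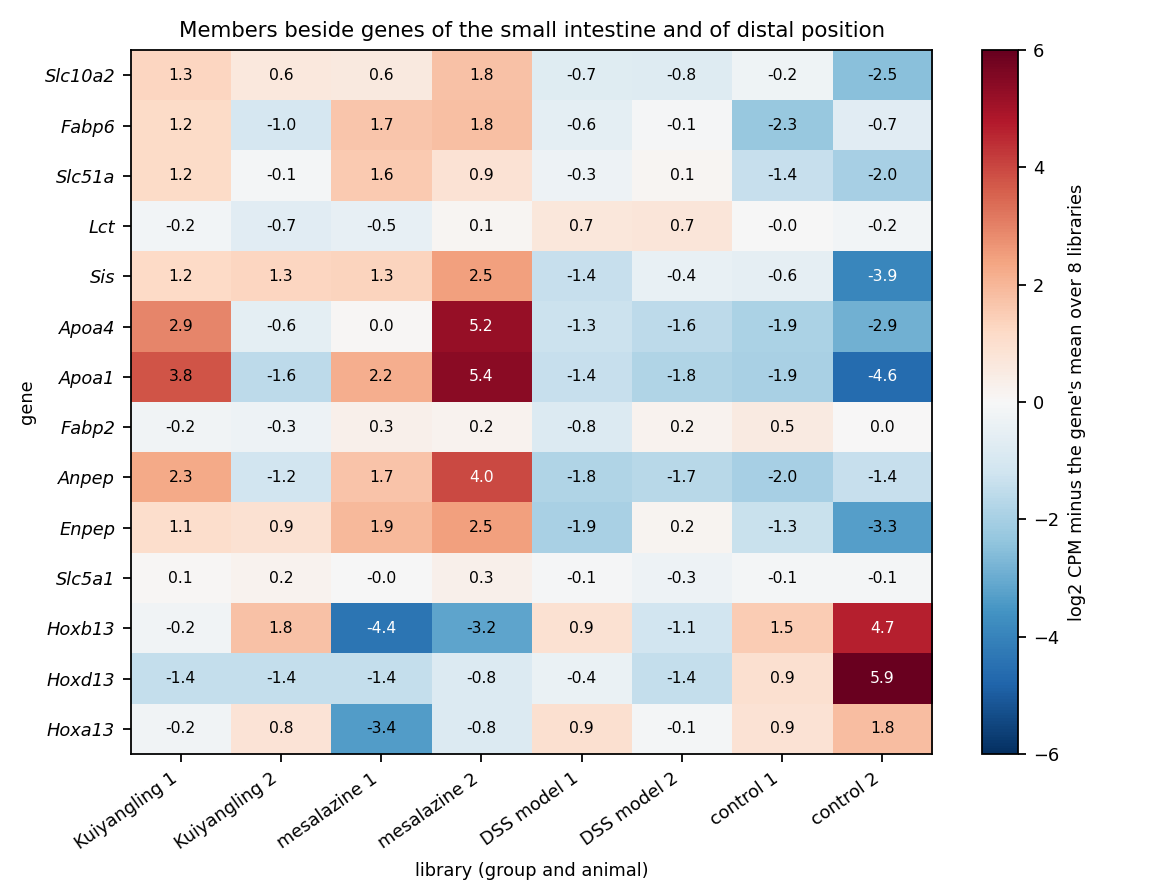
Log2 CPM minus the gene's mean over the 8 libraries (colour and numbers) for Slc10a2, Fabp6 and Slc51a (top), the 8 enterocyte markers of the small intestine (middle) and 3 genes of distal position (bottom), by library (horizontal axis). Apoa1 and Anpep are highest in mesalazine 2, mesalazine 1 and Kuiyangling 1, where Fabp6 is also highest, and Hoxb13 is highest in control 2 and lowest in both mesalazine libraries. Apoa1 and Anpep were picked after their values were seen, and other enterocyte markers, such as Fabp2, Slc5a1 and Lct, have another order.

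The genes whose profiles were closest to those of the tested members were found by the root mean square difference of log2 CPM over the 8 libraries, each gene centred on its mean. For Slc10a2 these were Ugt8a at 0.19, Hoxb2 at 0.41 and Cubn at 0.47, against a spread of Slc10a2 itself of 1.27 on that scale. For Slc51a they were Rbm11 at 0.24, Dnase1l2 at 0.25 and Mal at 0.31 (own spread 1.15), and for Fabp6 Slc30a2 at 0.55, Tgfbi at 0.61 and Ms4a10 at 0.65 (1.34). Slc51b was closest to Smim22, Romo1 and Tmem54, at 0.15 to 0.16 (0.65), and Nr1h4 to Stard3nl, Qdpr and Tmem200b, at 0.087 to 0.14 (0.53). Cyp27a1 was closest to Nxph3, Ccdc152 and Prodh, at 0.23 to 0.34 (0.78), and Abcc3 to Tdrd3, Lig3 and Papss1, at 0.034 to 0.065 (0.14). The members were not each other's nearest genes: among the 13381 genes tested, the closest member to Fabp6 was Cyp27a1 at rank 11, to Slc10a2 it was Slc51a at rank 85 and to Slc51a it was Nr1h4 at rank 120. For the rest the closest member was further off. It was Nr1h4 for Cyp27a1 at rank 628, for Slc51b at rank 988 and for Abcc3 at rank 10665. For Nr1h4 it was Slc51b at rank 1553. These distances are descriptions over 8 libraries that share their groups.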

How the data were processed

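Messenger RNA of 8 colonic mucosa samples was measured. The labels' protocols name a mirVana kit for extraction, an RNA integrity cutoff of 7 and an Illumina TruSeq stranded mRNA kit. The authors deposited whole-number read counts per gene. The deposited FPKM follow from those counts with a single length for each gene, as checked on the values. Trimmomatic and HISAT2 are named in the submitters' processing notes, and the build, annotation, counter and strand setting are not given in the sources used here. The header of 1 mesalazine column was misspelled and was taken as animal 2 by its number. The 2 animals of a group are the replicates.

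Counts of all 8 libraries entered 1 fit in edgeR 4.0.16 (R 4.3.3), with a mean per group, TMM scaling, filterByExpr by group (13381 genes) and quasi-likelihood F tests. A gene was called where its Benjamini-Hochberg adjusted p over all genes tested was below 0.05, without a fold limit. The test was also run on simulated counts, drawn as independent libraries with the spread that edgeR estimated. These held no libraries that stood apart and no length trends, so they cannot tell how the test behaves with such libraries. CPM are scaled by TMM, and log2 CPM used a prior count of 2. SE is the log2 change divided by the square root of F. Levels between genes are compared in FPKM. DESeq2 1.42.0, limma 3.58.1 on log2(FPKM + 0.1) and the other alternatives are described at the end. Named were all 10 members, other bile acid genes that were called, had the highest FPKM of their list or its smallest p, and the 3 genes closest in profile. Hoxb13, Enpep, Apoa1, Anpep and the overlapping genes were chosen after their values were seen. Cyp7a1, Cyp24a1 and Prac1 were listed but not analysed here. Members, lists and tests were chosen with earlier results of these data known.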

Additional observations from a re-analysis of the deposited data

How the results depend on the processing

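Over 16 alternatives, 916 of the values of the single bile acid genes kept their direction and their side of the threshold, 41 newly passed it, 11 no longer passed and 24 changed sign. The lost calls were those of Slc51a and Malrd1 in mesalazine against control, and none of the called values changed sign. Of the markers, Enpep lost its call in 5 and Hoxb13 in 4 of 16. DESeq2 size factors in edgeR left every count of calls within 1.5 times. Calls were more with DESeq2 (all genes, then the 7 tested): 435 and 2 for the DSS model against control, 13 for Kuiyangling against the DSS model, 91 and 1 for mesalazine against the DSS model, 349 and 2 for Kuiyangling against control and 982 and 6 for mesalazine against control. With no filter on low counts they were 487 and 2, 11, 104 and 3, 451 and 2, and 1090 and 6 in that order, and 3 for Kuiyangling against mesalazine. With only the 4 libraries compared they were 21 and 1 for Kuiyangling against the DSS model, 19 for Kuiyangling against control and 293 and 2 for mesalazine against control. Limma on log2(FPKM + 0.1) called 57 genes for mesalazine against control, and there the median of all genes shifted to -0.20, and to -0.18, 0.14 and 0.17 for the DSS model against control, Kuiyangling against the DSS model and Kuiyangling against mesalazine.

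Replicate numbers were shared by the groups. Correlations of the deviations of same-numbered animals, taken across genes, lay between -0.311 and 0.162. With 2 animals per group these correlations cannot exclude a shared batch or pairing. With the replicate block, 50 genes were called for the DSS model against control, and 65 genes, with 1 of the 7, Slc51a (2.25; adjusted p = 0.0475), for Kuiyangling against control.

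The next alternatives were chosen after seeing the data. Without both libraries that stood apart, 174 genes were called for the DSS model against control, 24 and 1 for Kuiyangling against the DSS model, 75 and 1 for mesalazine against the DSS model, 71 for Kuiyangling against control and 22, with 0 of the 7, for mesalazine against control. There Slc10a2 was at -0.51 and Cyp27a1 at 0.48 in the DSS model against control, and Slc51b at -0.54 and Nr1h3 at -0.15 in mesalazine against the DSS model. With the gene length trend removed, 37 genes were called for mesalazine against control, Abcc3 was at -0.023 for Kuiyangling against the DSS model and at 0.063 for mesalazine against control, and Slc51b was at -0.28 for mesalazine against the DSS model. Limma put Slc51b at -0.033 there and Abcc3 at 0.14 for Kuiyangling against mesalazine.

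Leaving out 1 library in turn gave 1 to 195 called genes for the DSS model against control (lowest without control 2, highest without mesalazine 2), 1 to 148 for Kuiyangling against control, with 0 to 1 of the 7 (lowest without Kuiyangling 1 or control 2, highest without control 1), and 1 to 2795 for mesalazine against control, with 0 to 5 of the 7 (lowest without control 2, highest without mesalazine 2). In the other comparisons it gave 0 called genes. The lone animal of a group was then taken to vary like the others. Values that changed sign ran from -0.49 to 1.79 for Slc10a2 and from -0.78 to 0.50 for Cyp27a1 in the DSS model against control. For Kuiyangling against the DSS model they ran from -0.75 to 1.49 for Fabp6, -0.052 to 1.23 for Slc51a, -0.20 to 0.41 for Nr1h4 and -0.033 to 0.21 for Abcc3. For mesalazine against the DSS model they ran from -0.55 to 0.53 for Slc51b, -0.16 to 1.01 for Nr1h3 and -0.0021 to 0.24 for Abcc3. They ran from -0.21 to 1.19 for Cyp27a1 in Kuiyangling against control, and from -0.77 to 0.38 for Slc10a2 and -0.12 to 0.059 for Abcc3 in Kuiyangling against mesalazine. The cause of these changes was not tested. Depth limits Gpbar1, Nr0b2 and Fgf15, and 2 animals per group limit every test. Whether the animals shared cages or days is not given, so p-values measure only the spread between these samples.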
